A study of Arabidopsis thaliana with 24 samples.

Results

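The heat shock factor family of Arabidopsis thaliana is described here through 10 members, 7 of class A and 3 of class B, out of 23929 genes in the deposited tables. They were chosen by locus, with earlier results of these data known. They are HSFA1A (AT4G17750, annotated as HSF1), HSFA1B (AT5G16820, HSF3), HSFA1D (AT1G32330), HSFA1E (AT3G02990), HSFA2 (AT2G26150), HSFA7A (AT3G51910), HSFA7B (AT3G63350), HSFB1 (AT4G36990, annotated as HSF4), HSFB2A (AT5G62020) and HSFB2B (AT4G11660). RNA-seq was done on whole seedlings of 4 genotypes, namely the wild type Col-0 (Col), the mutants vq1 and vq10, and the double mutant vq1vq10. All seedlings grew for 14 days on MS medium with 1% sucrose in long days at 21% oxygen. On day 15, 4 h after lights on, each genotype was kept for 4 h in dim light at 21% oxygen (normoxia) or at 1% oxygen (hypoxia). Each of the 8 groups holds 3 biological replicates, so that there are 24 libraries. The title of the series calls the mutants hypermorphic, that is, with raised gene activity, and the alleles are not described further in the sources used here.

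Heat shock factors are transcription factors that bind as trimers to heat shock elements, which are runs of inverted GAA units in the promoters of chaperone genes. Class A factors carry activation motifs. In Arabidopsis the A1 group starts the response to heat and is held inactive by HSP70 and HSP90 chaperones in unstressed cells, while HSFA2, HSFA7A and HSFA7B are heat-inducible and HSFA2 prolongs the response. Class B factors lack such activation motifs, and HSFB1 and HSFB2B act as repressors that dampen the heat response. HSFA2 and small heat shock protein genes are also known to be induced by low oxygen in Arabidopsis seedlings, and the comparisons ask how the factors respond to it and whether the mutants differ.

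The 250 bases before the annotated start of each gene were searched in TAIR10.1 for pairs of units, GAANNTTC or TTCNNGAA, on both strands. At least 1 pair was found before 4 members, namely HSFA1E, HSFA2, HSFA7A and HSFA7B, against 16.1% of 27443 protein-coding genes. A run of 3 units, in which GAANNTTC is followed by NNGAA or TTCNNGAA by NNTTC, overlaps 2 such pairs and was found in 0.386% of the promoters. It occurs at 1 place before HSFA2, 1 before HSFA7B and 2 before HSFA7A. These 3 windows are shown because no other member holds such a run, and capitals mark every pair.
HSFA2, chr2:11135374-11135623, plus strand: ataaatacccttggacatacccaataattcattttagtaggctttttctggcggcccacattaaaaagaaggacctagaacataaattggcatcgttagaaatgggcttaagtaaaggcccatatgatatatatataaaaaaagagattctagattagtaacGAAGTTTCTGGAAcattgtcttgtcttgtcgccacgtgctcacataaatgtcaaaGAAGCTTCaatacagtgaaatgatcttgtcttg
HSFA7A, chr3:19264891-19265140, plus strand: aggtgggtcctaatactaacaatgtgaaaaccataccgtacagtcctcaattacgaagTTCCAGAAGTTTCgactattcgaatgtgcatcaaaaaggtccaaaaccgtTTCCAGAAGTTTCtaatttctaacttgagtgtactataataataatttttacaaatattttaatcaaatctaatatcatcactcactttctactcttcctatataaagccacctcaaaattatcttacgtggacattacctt
HSFA7B, chr3:23398986-23399235, plus strand: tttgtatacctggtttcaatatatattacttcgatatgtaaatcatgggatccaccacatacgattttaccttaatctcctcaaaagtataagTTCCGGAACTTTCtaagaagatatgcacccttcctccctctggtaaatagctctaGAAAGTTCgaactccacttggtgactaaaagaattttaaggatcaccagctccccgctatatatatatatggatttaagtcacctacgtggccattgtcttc

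The run of 3 units lies at -88 to -76 in HSFA2, at -192 to -180 and -142 to -130 in HSFA7A, and at -157 to -145 in HSFA7B, counted in bases from the annotated start. HSFA2 also has a separate pair at -33 to -26, and HSFA7B one at -102 to -95. The HSFA2 window holds a G-box (CACGTG, in 6.49% of the promoters) as well, as does that of HSFA1E. The core of the WRKY factor site, TTGAC, occurs before HSFA2, HSFB1 and HSFB2B and in 44.9% of all promoters. Such matches describe these letters only and do not show that a factor binds there.

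Each library held 21150032 to 22645177 estimated reads, and its 10 most abundant genes took 11.5 to 14.2% of them. All 6 listed genes known to be induced by low oxygen, ADH1 among them, rose in all 4 genotypes, with a median log2 change of 5.18 in Col. VQ10 transcripts were higher in the libraries labelled vq10 and vq1vq10 (1.04 to 2.46 CPM, TMM-scaled counts per 1000000 reads) than in the others (0.10 to 0.86 CPM), whereas VQ1 in the libraries labelled vq1 (3.11 to 4.80 CPM) overlapped Col (3.03 to 5.41 CPM). All 5 root hair markers fell under hypoxia in every genotype, their summed level being 19.7 to 63.0 CPM in normoxic and 4.46 to 12.9 CPM in hypoxic libraries, and 3 of 5 green tissue markers rose in every genotype, the sum over all 5 being 39124 to 49109 CPM in normoxic and 53030 to 74206 CPM in hypoxic libraries. All 5 seed markers summed to 0.129 to 7.14 CPM under normoxia and 0.185 to 25.6 CPM under hypoxia, and SESA1 was at 0 reads in all normoxic libraries. The part of such tissue markers in the changes below was not tested, and in whole seedlings fewer cells of a type and less RNA per cell cannot be told apart.

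Levels of different genes were compared in deposited TPM, which corrects for transcript length. In normoxic Col, HSFB1 was the most abundant member at 20.3 ± 1.77 TPM (SD, n = 3), followed by HSFA1B at 14.3 ± 0.290 TPM, and their libraries did not overlap. HSFA1D (8.82 ± 1.28 TPM), HSFB2A (7.21 ± 2.75 TPM), HSFA7A (7.17 ± 1.41 TPM) and HSFA1A (7.12 ± 0.809 TPM) overlapped one another. HSFB2B stood at 4.65 ± 0.369 TPM and overlapped HSFB2A, and HSFA1E at 1.92 ± 0.0252 TPM lay below all of these. HSFA2 was at 0.183 ± 0.0231 TPM and HSFA7B, listed at 0 in 2 of the 3 libraries, at 0.02 TPM on average. Summed over all 10 members, the group means ran from 62.0 to 79.5 TPM, of which the A1 group made up 45.0 to 51.6%, while HSFA2 made up 0.110 to 0.256% under normoxia and 1.11 to 2.24% under hypoxia. The whole range of estimated reads was 1 to 78 per library for HSFA2 and 0 to 23 for HSFA7B, against 35 to 669 for the other 8, so that the values of those 2 carry the largest counting error.

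**Figure D1:**
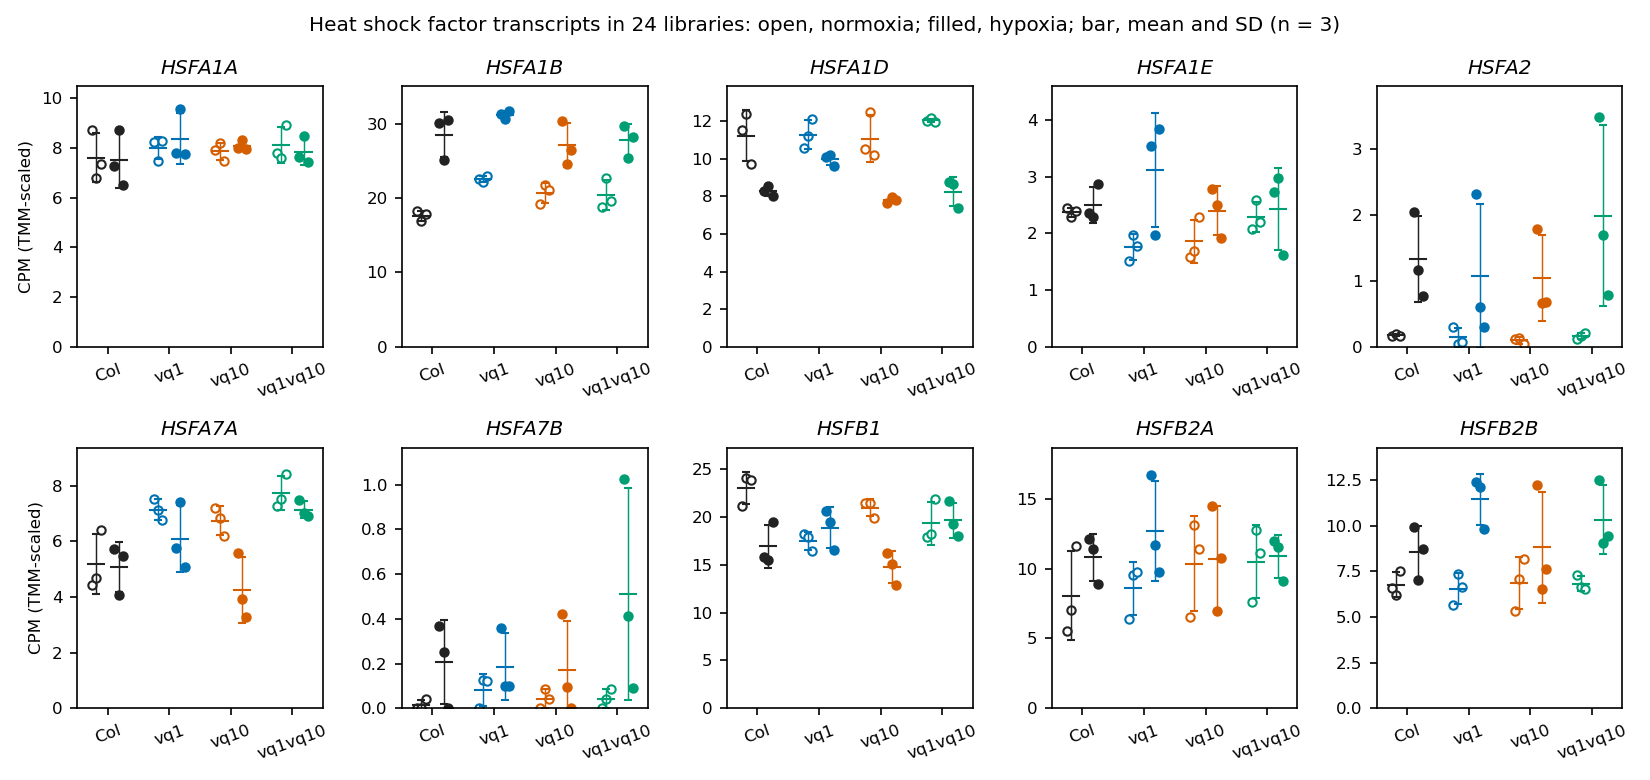
Level of each of the 10 members in 24 libraries, in CPM after TMM scaling, on axes that start at 0. Open points are normoxic and filled points hypoxic libraries, and bars give the mean and SD of 3 libraries (cut at 0 where the SD exceeds the mean). HSFA1B lies higher and HSFA1D lower under hypoxia in each genotype, and the hypoxic points of HSFA2 and HSFA7B spread widely.

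Under hypoxia HSFA2 and HSFA1B rose in all 4 genotypes, HSFA1D fell in Col, vq10 and vq1vq10, and HSFA1A passed the test in none. HSFB1, the most abundant member in normoxic Col, fell in Col and vq10. Of 9 members tested, 2 rose and 2 fell in Col (at an edgeR adjusted p under 0.05), where 21.9% of 20110 genes were called higher and 19.9% lower. In vq1, 4 rose and 0 fell (19.1% and 16.5% of all genes), in vq10, 2 rose and 3 fell (19.5% and 18.2%), and in vq1vq10, 3 rose and 1 fell (17.7% and 15.7%). The counts in Col lie near the shares of all genes, while a larger share of the members rose in vq1 and vq1vq10 and fell in vq10. With 9 members these are differences of a few genes, and they were not tested. Over the mean response of the 4 genotypes, 4 rose and 3 fell, against 31.7% and 33.1% of all genes. The median log2 change of the members was 0.08, 0.47, 0.05 and 0.05 in Col, vq1, vq10 and vq1vq10, beside -0.01 for all genes in each.

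Without TMM scaling, on library totals alone, the median change of all genes was -0.25, -0.20, -0.24 and -0.12 in the same order, and the changes given here are relative to the TMM scale. On library totals the members rose and fell 2 and 2 times in Col, 3 and 1 in vq1, 1 and 3 in vq10, 2 and 1 in vq1vq10, and 3 and 4 in the mean. Of 20110 genes, 2433 were then called higher and 7503 lower in Col, 2417 and 6136 in vq1, and 2178 and 7099 in vq10. In vq1vq10 these numbers were 2588 and 4610, and in the mean 3690 and 10556. One edgeR model was fitted to all 24 libraries, and log2 changes are given ± the standard error.

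**Figure D2:**
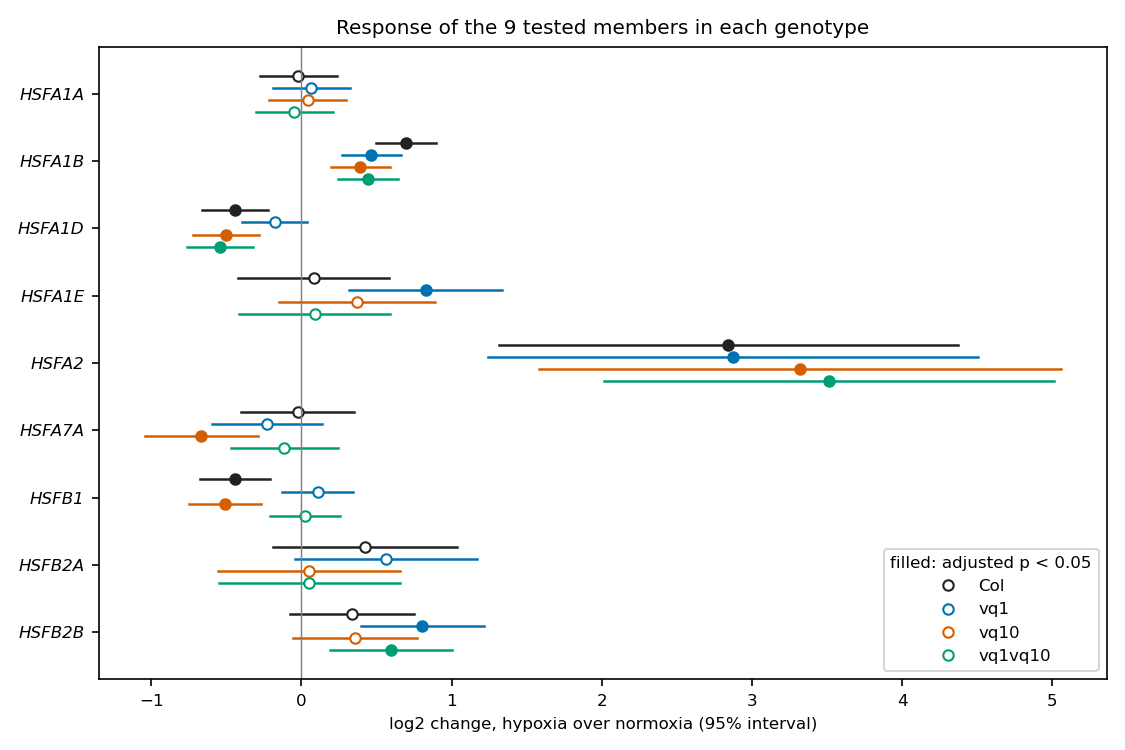
Log2 change from normoxia to hypoxia of the 9 tested members, with 95% intervals from edgeR, in Col (black), vq1 (blue), vq10 (orange) and vq1vq10 (green). Filled points have an adjusted p under 0.05. HSFA2 has changes of 2.84 to 3.51 with wide intervals, HSFA1B lies above 0 in every genotype, and HSFB1 lies below 0 in Col and vq10 only.

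Among the A1 factors, HSFA1B rose and HSFA1D fell. HSFA1B read 18.2, 16.9 and 17.8 CPM in normoxic Col and 30.0, 25.1 and 30.5 CPM in hypoxic Col. It read 22.6, 22.1 and 22.96 CPM in normoxic vq1 and 31.3, 30.6 and 31.7 CPM in hypoxic vq1. In vq10 it went from 19.2, 21.8 and 21.0 CPM to 30.3, 24.6 and 26.5 CPM, and in vq1vq10 from 18.8, 22.8 and 19.7 CPM to 29.7, 25.4 and 28.2 CPM. Every hypoxic library of HSFA1B lay above every normoxic library of its genotype, a separation that 23.3 to 25.5% of all genes showed. The log2 change was 0.69 ± 0.10 in Col (adjusted p = 4.6e-06) and 0.47 ± 0.09 in vq1 (adjusted p = 4.8e-04). It was 0.39 ± 0.10 in vq10 (adjusted p = 0.0025) and 0.44 ± 0.09 in the double mutant (adjusted p = 8.7e-04). On library totals alone the call in vq10 was lost, at 0.16 (adjusted p = 0.19).

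HSFA1D moved the other way. It read 11.5, 12.4 and 9.73 CPM in normoxic Col and 8.28, 8.53 and 8.01 CPM in hypoxic Col. In vq10 it read 10.5, 12.5 and 10.2 CPM, then 7.67, 7.96 and 7.81 CPM, and in vq1vq10 it read 12.02, 12.2 and 11.96 CPM, then 8.75, 8.65 and 7.38 CPM. Every hypoxic library lay below every normoxic library of its genotype, also in vq1, where the values were 10.6, 11.2 and 12.1 CPM against 10.1, 10.2 and 9.64 CPM. Within a single genotype 22.8 to 24.4% of all genes did so, and the share in all 4 at once was again not computed. The log2 change was -0.44 ± 0.11 in Col (adjusted p = 0.0020), -0.50 ± 0.11 in vq10 (adjusted p = 7.6e-04) and -0.54 ± 0.11 in the double mutant (adjusted p = 3.2e-04). In vq1 it was -0.18 ± 0.10 and did not pass (adjusted p = 0.19), but it was called on library totals at -0.37 (adjusted p = 0.013). In the mean of the 4 genotypes HSFA1B rose by 0.50 ± 0.05 and HSFA1D fell by 0.42 on the log2 scale (SE 0.05).

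The ratio of HSFA1B to HSFA1D within a library, in TPM, does not depend on how libraries are scaled against each other. It was 1.40 to 2.20 in the 12 normoxic libraries (median 1.89) and 3.02 to 4.09 in the 12 hypoxic ones (median 3.46), so that the conditions did not overlap in any genotype or across genotypes. This ratio was picked after the values had been seen and was given no test. The ratio of HSFA1B to HSFB1 was likewise picked after its values had been seen and was given no test. It was 0.645 to 1.29 under normoxia and 1.21 to 1.88 under hypoxia, which overlapped across genotypes but not within any genotype. HSFA1B exceeded HSFB1 in all 12 hypoxic libraries but in 4 of 12 normoxic ones, 3 of them from vq1, and the order of the most abundant members therefore turned in every library of Col and vq10.

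**Figure D3:**
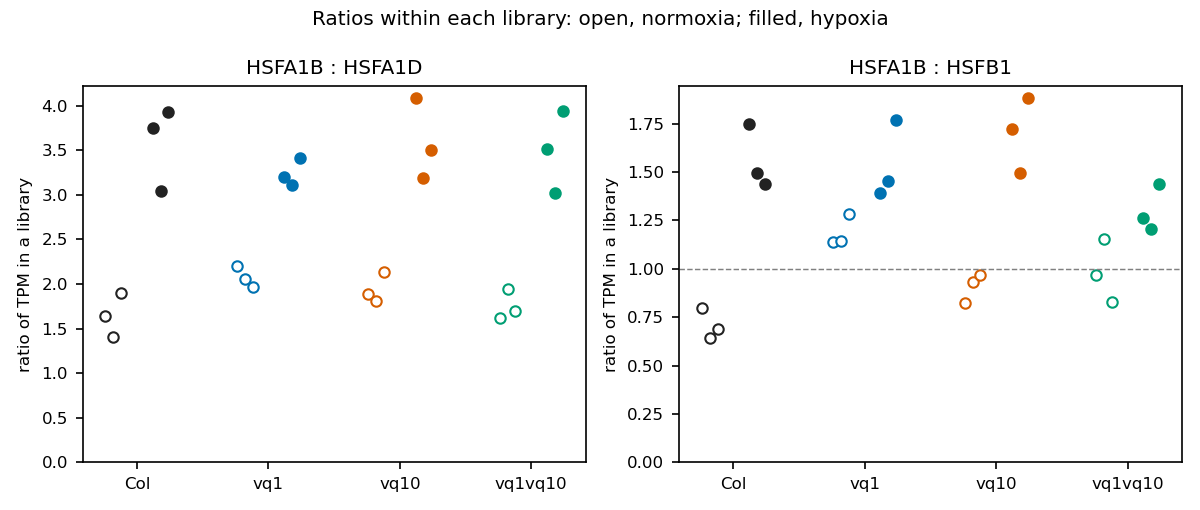
Ratio of deposited TPM within each of the 24 libraries, HSFA1B over HSFA1D on the left and HSFA1B over HSFB1 on the right, on axes that start at 0. Open points are normoxic and filled points hypoxic. The left ratio runs from 1.40 to 2.20 under normoxia and from 3.02 to 4.09 under hypoxia, and the dashed line on the right marks equal levels.

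The remaining A1 factors moved less. HSFA1A lay between 6.51 and 9.55 CPM in all 24 libraries, and its log2 change was -0.02, 0.07, 0.04 and -0.05 in Col, vq1, vq10 and vq1vq10, with 95% intervals that lay within -0.30 and 0.32. HSFA1E, the least abundant A1 gene, read 1.51, 1.97 and 1.79 CPM in normoxic vq1 and 3.54, 1.97 and 3.85 CPM in hypoxic vq1, where 1 hypoxic library lay within the normoxic range. It was called in vq1 at 0.83 ± 0.25 (adjusted p = 0.012) and in the mean at 0.34 ± 0.12 (adjusted p = 0.019), with 0.08, 0.37 and 0.09 in Col, vq10 and vq1vq10. The call in vq1 was lost without hypoxic replicate 1 (adjusted p = 0.054) or 3 (0.080), or without normoxic replicate 1 (0.050), all of vq1. It was also lost on library totals and without the 4 hypoxic libraries numbered 1 (adjusted p of up to 0.070). The call in the mean was lost without hypoxic replicate 3 of vq1 or replicate 2 of vq1vq10 (adjusted p = 0.053 for each), and on library totals (0.15, adjusted p = 0.30). Leaving out the 4 hypoxic libraries numbered 1 removed it as well.

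HSFA2, the heat-inducible amplifier, had the largest change of the 9 tested members and the lowest normoxic level of them. Its normoxic libraries held 1 to 7 reads each, and it passed the low-count filter through hypoxic libraries only. Its place among the tested members thus depended on its hypoxic level, and in the fit of the vq1 groups alone it was filtered out. In normoxic Col it read 0.168, 0.201 and 0.168 CPM, which are 4, 5 and 4 reads, and in hypoxic Col 2.04, 1.17 and 0.774 CPM, which are 39, 23 and 17 reads. In vq1 it read 0.302, 0.0429 and 0.0811 CPM under normoxia and 2.31, 0.606 and 0.300 CPM under hypoxia. In vq10 it read 0.126, 0.127 and 0.0425 CPM, then 1.79, 0.660 and 0.677 CPM. Conditions did not overlap in Col and vq10, while in vq1 the lowest hypoxic library was just below the highest normoxic one. In vq1vq10 it read 0.125, 0.167 and 0.217 CPM under normoxia and 3.48, 1.69 and 0.784 CPM under hypoxia, again without overlap. HSFA2 rose on the log2 scale by 2.84 ± 0.74 in Col (adjusted p = 0.0036), 2.87 ± 0.79 in vq1 (adjusted p = 0.0063), 3.32 ± 0.84 in vq10 (adjusted p = 0.0034) and 3.51 ± 0.72 in the double mutant (adjusted p = 5.9e-04). In the mean of the 4 genotypes this was 3.14 ± 0.39 (adjusted p = 2.4e-07), an 8.80-fold rise. Without hypoxic replicate 1 of vq1 the change there was 1.65 and the call was lost (adjusted p = 0.14).

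HSFA7B, which carries 1 run of 3 units in its window, did not pass the low-count filter. It had 0, 0 and 1 reads in normoxic Col and 7, 5 and 0 in hypoxic Col, and 0, 1 and 2 reads in normoxic vq1vq10 and 23, 9 and 2 in hypoxic vq1vq10. Summed over genotypes there were 13 normoxic and 67 hypoxic reads, a ratio of 5.999 at equal depth with a 95% counting interval of 3.28 to 11.9. This interval covers counting error and not the spread between libraries. By genotype the ratio was 14.3 in Col (2.12 to 613) and 12.2 in vq1vq10 (3.84 to 62.1). For vq10 it was 3.98 (1.03 to 22.5), and for vq1 2.20 with an interval that includes equality (0.746 to 7.24). The hypoxic libraries numbered 1 held 45 of the 67 hypoxic reads. Without them the ratio was 2.92 over all genotypes (1.41 to 6.32), 8.70 in Col (0.974 to 412), 5.98 in vq1vq10 (1.58 to 33.4), 1.17 in vq10 (0.0978 to 10.2) and 1.19 in vq1 (0.247 to 5.02). In an edgeR fit without the filter HSFA7B was called in vq1vq10 (adjusted p = 0.024) and in the mean (adjusted p = 0.0023).

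HSFA7A, with 2 runs of 3 units, did not rise in any genotype. It read 4.42, 4.70 and 6.42 CPM in normoxic Col and 5.71, 4.06 and 5.46 CPM in hypoxic Col, which overlap. In vq10 it read 7.21, 6.82 and 6.20 CPM under normoxia and 5.57, 3.91 and 3.28 CPM under hypoxia, without overlap. The log2 change was -0.03 ± 0.18 in Col, -0.23 ± 0.18 in vq1, -0.67 ± 0.18 in vq10 (adjusted p = 0.0062) and -0.11 ± 0.17 in vq1vq10, and -0.26 ± 0.09 in the mean (adjusted p = 0.014). It passed in vq10 and in the mean only.

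Of the class B factors, HSFB1 fell in Col and vq10 and was close to level in the other genotypes. It read 21.1, 24 and 23.9 CPM in normoxic Col and 15.8, 15.4 and 19.5 CPM in hypoxic Col. In vq10 it went from 21.4, 21.5 and 19.9 CPM to 16.2, 15.1 and 12.9 CPM. In vq1 it read 18.2, 17.9 and 16.4 CPM under normoxia and 20.6, 19.4 and 16.5 CPM under hypoxia, and the conditions overlapped there but not in Col or vq10. In vq1vq10 it read 17.9, 18.2 and 21.9 CPM, then 21.6, 19.3 and 17.95 CPM, which also overlap. The log2 change was -0.44 ± 0.11 in Col (adjusted p = 0.0033), -0.51 ± 0.12 in vq10 (adjusted p = 0.0014), 0.11 ± 0.11 in vq1 and 0.02 ± 0.11 in vq1vq10.

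HSFB2B, a repressor of heat genes, rose in vq1 and vq1vq10. It read 5.65, 7.34 and 6.65 CPM in normoxic vq1 and 12.4, 12.1 and 9.84 CPM in hypoxic vq1. In vq1vq10 it read 7.30, 6.64 and 6.54 CPM, then 12.5, 9.06 and 9.41 CPM. Neither genotype overlapped between conditions, whereas Col (6.60, 6.18 and 7.51 CPM, then 9.91, 7.01 and 8.74 CPM) did. The log2 change was 0.34 ± 0.20 in Col, 0.80 ± 0.20 in vq1 (adjusted p = 0.0028), 0.36 ± 0.20 in vq10, 0.60 ± 0.20 in vq1vq10 (adjusted p = 0.023) and 0.52 ± 0.10 in the mean (adjusted p = 7.9e-05). The call in vq1vq10 was lost without its hypoxic replicate 1 (0.42, adjusted p = 0.15), without its normoxic replicate 2 or 3 (adjusted p = 0.069 and 0.071), and on library totals (0.48, adjusted p = 0.060). HSFB2B shares bases with antisense genes, 352 with a non-coding RNA and 308 with AT4G11670, and whether the counting used strand is not given in the sources used here.

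HSFB2A spread widely between replicates and was called in no genotype. It read 5.51, 7.02 and 11.6 CPM in normoxic Col and 12.1, 11.4 and 8.88 CPM in hypoxic Col. In normoxic vq1 it read 6.43, 9.53 and 9.78 CPM, and in normoxic vq10 6.54, 13.1 and 11.4 CPM. The normoxic vq1vq10 libraries read 7.64, 12.8 and 11.1 CPM. In each of the 4 genotypes HSFB2A was thus lowest in normoxic library 1 and highest in hypoxic library 1. HSFB2A was not tested for a link to the replicate number. Its log2 changes were 0.42 ± 0.30, 0.56 ± 0.29, 0.05 ± 0.29 and 0.05 ± 0.29 in Col, vq1, vq10 and vq1vq10, and 0.27 ± 0.15 in the mean (adjusted p = 0.11). Without normoxic replicate 3 of Col the mean was 0.35 and passed (adjusted p = 0.034).

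One feature of the hypoxic libraries bears on HSFA2. In each genotype the hypoxic library numbered 1 had the highest HSFA2 level of the 3, which was seen in the values and not planned. The same order held for HSFA7B, HSFB2A and HSFB2B, for none of the 4 A1 factors, and for HSFA6B, HSFA8 and HSFC1 of the other factors. It held for 10 of 24 tested genes that heat shock factors are known to activate (2 of 24 under normoxia), 0 of 10 regulators of the factors and 0 of 6 low-oxygen genes. Over all genes it held for 3.52% under hypoxia, against 1.65 and 1.95% for the libraries numbered 2 and 3. Under normoxia the shares for libraries 1, 2 and 3 were 2.22, 1.47 and 1.41%. HSP101, a chaperone that dissolves protein aggregates, read 13.7, 11.2 and 8.70 CPM in hypoxic Col and 24.1, 20.6 and 13.5 CPM in hypoxic vq1vq10. The labels do not say that a replicate number marks a shared day or batch. Without these 4 libraries HSFA2 changed on the log2 scale by 2.40 in Col (adjusted p = 0.0023), 2.71 in vq10 (adjusted p = 0.0036) and 2.85 in the double mutant (adjusted p = 6.0e-04). The call in vq1 was lost, at 1.64 (adjusted p = 0.066). The members then rose and fell 2 and 2 times in Col, 2 and 0 in vq1, 2 and 3 in vq10, and 2 and 1 in vq1vq10. Of 20248 genes tested in that fit, 3912 were called higher and 3341 lower in Col, and 3127 and 2508 in vq1. In vq10 these numbers were 3524 and 2802, and in vq1vq10 3181 and 2318.

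**Figure D4:**
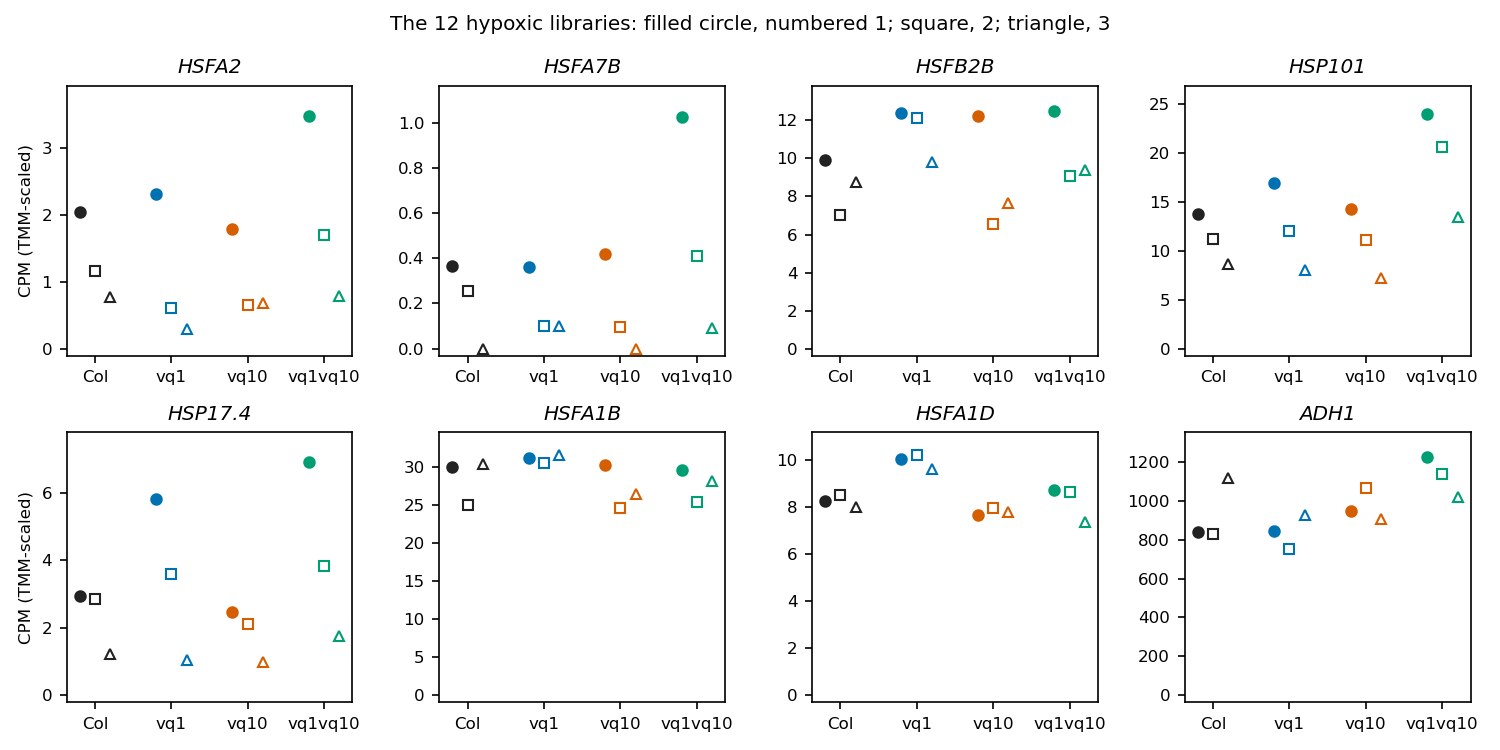
Levels in the 12 hypoxic libraries in CPM after TMM scaling, for 5 of the members (HSFA2, HSFA7B, HSFB2B, HSFA1B and HSFA1D), the chaperone genes HSP101 and HSP17.4, and the low-oxygen gene ADH1. Filled circles are the libraries numbered 1, squares 2 and triangles 3, and the circles lie highest in every genotype for HSFA2, HSFA7B, HSFB2B, HSP101 and HSP17.4. No such order appears in the panels of HSFA1B, HSFA1D and ADH1.

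Of the 25 listed genes that heat shock factors activate, 24 were tested. Those that rose numbered 18, 17, 15 and 22 in Col, vq1, vq10 and vq1vq10, and 0 fell in any genotype. Over all genes 21.9, 19.1, 19.5 and 17.7% were called higher and 19.9, 16.5, 18.2 and 15.7% lower. The median log2 change of the 24 tested genes was 1.00, 1.13, 0.93 and 1.46, beside -0.01 for all genes. Setting genes at 0 normoxic reads to a bound of 3 reads per group could not move these medians, since such genes stayed above them. Without the 4 libraries numbered 1 the counts were 18, 15, 12 and 19 higher and 0 lower, and in vq10 10 rose on library totals. The 6 called members with the largest changes in Col were the small heat shock protein genes HSP22.0, HSP17.6II, HSP23.6-MITO, HSP17.6A, HSP21 and HSP17.6C, which encode chaperones that hold unfolding proteins. HSP17.6A read 0.0421, 0.442 and 0.168 CPM in normoxic Col and 4.19, 5.69 and 1.41 CPM in hypoxic Col, a log2 change of 4.06 (adjusted p = 1.5e-04). HSP22.0 had 0 reads in normoxic Col and 51 in hypoxic Col, and HSP17.6II had 1 and 106. Both passed the low-count filter through hypoxic libraries only. HSP17.6C rose by 3.4, 3.34, 3.09 and 5.17 on the log2 scale in the same order of genotypes.

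Of 10 genes whose products hold the factors inactive or modify them, more fell than rose. In Col 8 fell and 1 rose, in vq1 5 and 1, in vq10 4 and 1, and in vq1vq10 6 and 0. Over all genes 19.9, 16.5, 18.2 and 15.7% were called lower and 21.9, 19.1, 19.5 and 17.7% higher. The median log2 change of the 10 genes was -0.47, -0.28, -0.23 and -0.30, beside -0.01 for all genes. Without the 4 hypoxic libraries numbered 1, 6, 2, 3 and 3 fell in the same order. The cytosolic chaperone gene HSC70-3 fell in all 4 genotypes, by 0.78, 0.58, 0.46 and 0.46 on the log2 scale. MPK3, a stress kinase, fell by 0.62, 0.76, 0.85 and 0.84 in the same order, and HSP90.3 by 0.72, 0.41, 0.40 and 0.44. HSC70-2 fell by 1.16 in Col and HSP90.4 by 0.62. MPK6, a related kinase, rose by 0.36 in Col. HSC70 and HSP90 genes have near-identical copies, between which the counting could have divided reads.

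Of the other 11 genes of the family, HSFA9 was not analysed here and 10 were tested. In Col 3 rose and 1 fell, in vq1 4 and 1, in vq10 3 and 2, and in vq1vq10 2 and 1, beside 21.9, 19.1, 19.5 and 17.7% of all genes called higher and 19.9, 16.5, 18.2 and 15.7% called lower. HSFA6A read 0.631, 0.120 and 0.881 CPM in normoxic Col and 5.35, 1.62 and 2.32 CPM in hypoxic Col, and it rose by 2.50, 2.41, 1.67 and 2.23 on the log2 scale in Col, vq1, vq10 and vq1vq10. HSFB4, also called SCHIZORIZA and required for root ground tissue, rose by 0.83, 0.58, 0.91 and 0.72. HSFA3, which in heat stress lies downstream of DREB2A, fell by 1.01, 0.88, 0.79 and 0.80 in the same order, while DREB2A itself rose by 1.38 in Col. Without the 4 libraries numbered 1, HSFA3 passed in no single genotype (-0.82 to -0.75, adjusted p = 0.050 to 0.069) but in the mean, and HSFA6A did not pass in vq1 (1.65, adjusted p = 0.071) or vq10 (1.38, adjusted p = 0.11). HSFA5 rose in Col and vq1 (0.31 and 0.32), HSFC1 in vq1 and vq10 (0.83 and 0.62), and HSFA8 fell in vq10 (-0.71). HSFA6B, at 1 to 28 reads per library (median 4.5), passed only in the mean (1.59). HSFA4A, HSFA4C and HSFB3 passed in none. An antisense non-coding gene covers 1808 of the 1809 bases of HSFC1, and HSFA3 shares 486 bases with AT5G03710 on the other strand.

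No member was called different between a mutant and Col in either condition. Over 6 such comparisons and 54 values 0 were called by edgeR or DESeq2, 11 had an unadjusted p under 0.05 (6.41% of the values of all genes did), and the smallest adjusted p was 0.31. Of all genes 0.0796, 0.0597 and 0.0646% were called under normoxia in vq1, vq10 and vq1vq10, and 0.0845, 0.0646 and 0.0845% under hypoxia. The smallest p belonged to HSFA1B, which was 0.36 higher on the log2 scale in vq1 than in Col under normoxia (95% interval 0.16 to 0.55, unadjusted p = 0.0012). HSFB1 was 0.40 lower there (difference -0.40, interval -0.63 to -0.16, adjusted p = 0.35). HSFA7A was 0.58 higher in vq1vq10 than in Col under normoxia (interval 0.21 to 0.94, adjusted p = 1.0) and 0.49 higher under hypoxia (0.12 to 0.86, adjusted p = 0.42). The half-width of the 95% interval, unadjusted for the number of genes, reached 2.19 for HSFA2, in vq10 against Col under normoxia. Under hypoxia the widest half-width of a member was 1.17 to 1.24, so that differences of such sizes could go uncalled, and the narrowest was 0.195 to 0.196. Since the adjustment covers all genes, differences beyond a member's half-width could go uncalled too, as that of HSFA7A did.

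The response to hypoxia was not called different from Col for any member in any mutant, by either tool. Of 27 values 5 had an unadjusted p under 0.05 (6.59% over all genes), the smallest adjusted p was 0.54, and 0% of all genes were called by edgeR. The response of HSFB1 was 0.55 higher in vq1 than in Col on the log2 scale (interval 0.22 to 0.88, unadjusted p = 0.0025, adjusted p = 1.0). In vq1vq10 it was 0.46 higher (0.13 to 0.80, unadjusted p = 0.0083, adjusted p = 0.54), and in vq10 the difference was -0.06 (-0.40 to 0.27). The 3 comparisons share the Col libraries. The response of HSFA7A in vq10 was lower by 0.64 (difference -0.64, interval -1.17 to -0.11, adjusted p = 0.59) and that of HSFA2 differed by 0.03, 0.48 and 0.67 in vq1, vq10 and vq1vq10, with an interval as wide as -1.97 to 2.92 in vq10.

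**Figure D5:**
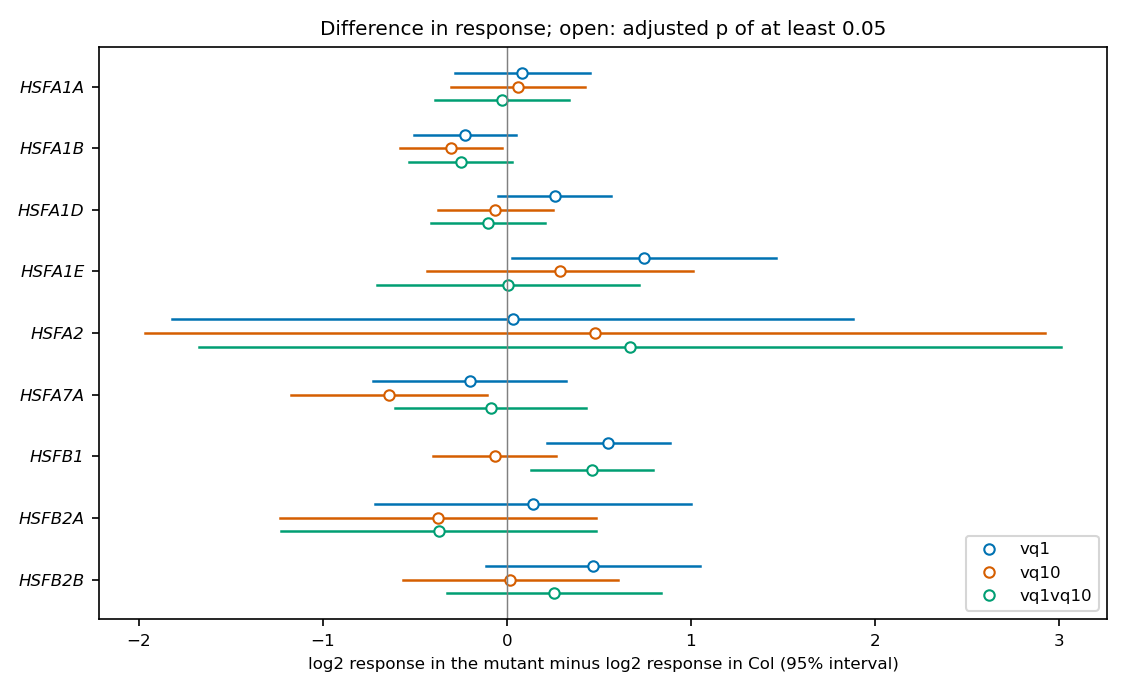
Log2 response to hypoxia in each mutant minus that in Col for the 9 tested members, with 95% intervals from edgeR, in vq1 (blue), vq10 (orange) and vq1vq10 (green). All points are open because no adjusted p was under 0.05. HSFB1 lies at 0.55 in vq1 and 0.46 in vq1vq10, and the intervals of HSFA2 are the widest.

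Between the double mutant and each single mutant, 0 of 36 values were called by edgeR or DESeq2, and 3 had an unadjusted p under 0.05, near the 6.5% over all genes. Of all genes 0.119 and 0.114% were called against vq1 under normoxia and hypoxia and 0% against vq10. HSFA7A under hypoxia read 7.496, 7 and 6.92 CPM in vq1vq10 and 5.57, 3.91 and 3.28 CPM in vq10, a difference of 0.75 on the log2 scale (interval 0.37 to 1.13, unadjusted p = 4.5e-04, adjusted p = 0.28).

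Deviations from the group means over the 24 libraries were compared between the 9 tested members, as a description of libraries that share depth and scaling. The 36 pairs had a Pearson r of -0.38 to 0.65, with a median of 0.21. HSFB2B stood highest with HSFA1B (0.65) and HSFB2A (0.63), HSFA7A with HSFB1 (0.64), and HSFA1A lowest with HSFA1B (-0.38). Over the 8 group means, the 5 genes most like HSFA2 among 16747 were THA2, UBC9, AT5G35320, AT4G17670 and BBX19, with r of 0.991 to 0.997. Those most like HSFB2B were AT4G36140, DEG7, SLOMO, AT1G17860 and ABCA2 (0.986 to 0.992), and those most like HSFA7A were PRP40C, AT3G26760, AT3G28690, MAP3KA and AGO1 (0.937 to 0.955). These are the highest r of many genes over 8 points that split into normoxic and hypoxic ones, and they do not show shared regulation. In the mean response 13024 of 20110 genes were called, and the normoxic means of HSFA2 rest on 7 to 13 reads per group.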

How the data were processed

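The authors' files give, per the file headers, an estimated count (expected count), a TPM and an FPKM per gene and library. HISAT2 2.0.4, TAIR10 and DESeq2 appear in the submitters' processing notes without their roles. Which counter was used, and how it treated strand and shared reads, is not given in the sources used here. The deposited counts were rounded to whole numbers, since 525 to 581 genes per library were not whole. All 23929 genes matched the TAIR10.1 annotation by locus.

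The test was edgeR 4.0.16 (R 4.3.3, quasi-likelihood, TMM factors, filterByExpr, 20110 genes, 1 mean per group over 24 libraries), with Benjamini-Hochberg adjustment over all genes and 0.05 as the threshold. It was tested on simulated data. CPM are TMM-scaled, and log2 CPM for correlations used a prior count of 2 and, for likeness, genes with an average of at least 1. The deposited TPM were used for levels between genes only, and the deposited FPKM were not used. No 2 libraries were duplicates (replicates differed by a chi-square of 5.97 or more per degree of freedom). Counting intervals do not cover PCR duplicates. P-values rest on the spread between replicates that the submitters call biological. That spread was estimated over all 8 groups at once, and not from the 3 replicates of each compared group alone.

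The members, the gene lists and the promoter motifs were chosen with earlier results of these data known. All heat shock factor genes are named, of other lists up to 6 called members with the largest change in Col, and the 5 genes most like 3 members. HSP101, HSP17.4, DREB2A and ADH1 were added as examples after their values were seen. Alternatives were RLE factors, no filter, DESeq2 1.42.0, the compared groups alone, a block for the replicate number, and omission of each library in turn. Library totals alone, and a fit without the 4 hypoxic libraries numbered 1, were added after seeing the data.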

Additional observations from a re-analysis of the deposited data

How the results depend on the processing

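For the members' changes under hypoxia 737 alternative values were computed, of which 717 kept their side of the threshold, 17 lost and 2 gained the call. The one that turned was HSFA1A in the mean of the 4 genotypes, at -0.18 on library totals alone (adjusted p = 0.012), where the median of all genes also moved down. In the other comparisons all 1678 values kept their side, no member being called. Values uncalled under both settings were counted as kept also where their sign changed, as 170 did. The number of members called in vq1 fell from 4 to 2 without the 4 hypoxic libraries numbered 1, and leaving out single libraries gave 2 to 4 there. For the other 17 comparisons leaving out single libraries moved the number by no more than 1. With the replicate number as a block the numbers called were 4, 4, 5 and 4 in Col, vq1, vq10 and vq1vq10 and 0 in comparisons between genotypes, and it changed no call of the members. Same-numbered libraries of a condition had a median residual r of 0.17 (-0.17 to 0.51, 22 of 36 pairs above 0.1), against -0.07 for differently numbered ones (13 of 72 above 0.1) and -0.04 for same-numbered libraries across conditions. Libraries of a number thus tended to deviate together within a condition. The numbers were not used to pair libraries, because the labels do not tie them to a batch and not every pair exceeded 0.1, and a block within each condition was not fitted.

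The numbers of all genes called on library totals and without the 4 libraries numbered 1 are given above. On library totals, of the other family members 3 were called lower in Col and 2 in vq1vq10, and 2 were called higher in vq1 and 1 in vq10. Of the factors' targets 1 was called lower in Col and in the mean. Of the regulators 0 were called higher in Col, vq1, vq10 and the mean, and 8 lower in vq1. Without the 4 libraries numbered 1, 2 other family members rose and 0 fell in vq1, 1 rose and 1 fell in vq10, and 0 fell in vq1vq10. Of the regulators 2 were then called lower in vq1, 3 in vq1vq10, and 0 higher in vq10. The cause was not tested. The order of levels was nearly the same from CPM per transcript length, where no member moved by more than 1 place in a group. HSFA2 and HSFA7B are limited by their few reads, as are HSFA6B and HSFB3 of the other factors (1 to 28 and 1 to 13 per library).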
